A study of Mus musculus with 5 samples.

Results

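Interstitial macrophage genes are a set of 10 mouse genes (C1qa, C1qb, C1qc, Ms4a7, Stab1, Mrc1, Cx3cr1, Lyve1, Folr2 and Pf4) that mark the resident macrophages of tissue stroma. They were found by symbol, and all 10 were among the 32285 genes of the count table. They were chosen by their measured levels in the myeloid cells of these same libraries, so their levels by cell class and by genotype are given as a description. Where members past the threshold of a fit across all genes are counted, the share of all genes past it is printed beside them and nothing is read from the count. Whole lungs of E18.5 mouse embryos were dissociated for single-cell RNA-seq. Controls were 2 embryos heterozygous for Zswim8 (Zswim8+/-, libraries Het1 and Het2), and the others were 3 embryos labelled Zswim8-/- (libraries KO1, KO2 and KO3), 1 library per embryo. Values per library follow the order of these names. Zswim8 encodes the substrate receptor of a ubiquitin ligase that acts in target-directed degradation of microRNAs. The heterozygous controls carry 1 mutant allele, wild-type lungs were not analysed here, and strain and litter are not given in the sources used here. The red blood cells were lysed before loading, and the suspension was not sorted, so all lung cell types could be present.

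Resident macrophages seed the lung before birth and divide broadly into alveolar macrophages, which take shape in the airspaces around birth and clear surfactant, and interstitial macrophages, which sit in the stroma near vessels and nerves. C1qa, C1qb and C1qc encode the chains of C1q, the recognition part of the first complement component, which binds immune complexes and dying cells and is made largely by macrophages. Stab1, Mrc1 and Lyve1 encode endocytic receptors for scavenged ligands, mannosylated glycoproteins and hyaluronan. Folr2 encodes a folate receptor, Cx3cr1 the receptor for fractalkine, Pf4 the chemokine platelet factor 4, and Ms4a7 a membrane-spanning 4-domain protein found in macrophages. Lyve1 is also a classic gene of lymphatic vessels, Stab1 of sinusoidal and lymphatic endothelium, Cx3cr1 of monocytes, and Pf4 of platelets.

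All 10 are protein-coding genes and lie on 7 chromosomes of the mouse genome build GRCm38. The C1q genes lie side by side on the minus strand of chromosome 4, within 18675 bases from 136880129 to 136898803, in the order C1qb, C1qc, C1qa. Ms4a7 is at 11321039 to 11336146 on chromosome 19, Stab1 at 31139013 to 31168641 on chromosome 14, and Mrc1 at 14229392 to 14332057 on chromosome 2. Cx3cr1 is at 119901616 to 120069879 on chromosome 9 and Pf4 at 90772435 to 90773383 on chromosome 5. Folr2, at 101839988 to 101857194, and Lyve1, at 110850607 to 110863239, are both on chromosome 7. RefSeq start regions (build GRCm38.p6) were matched for 8 of the 10 members. The 250 bases before the start are shown 5′ to 3′ on the gene's strand for C1qb and C1qc, as neighbours with near-equal patterns, for Ms4a7, as the member with the largest difference between genotypes over whole libraries, and for Stab1, as a member shared with endothelium. Capitals mark GAGGAA, a core of sites of the myeloid factor PU.1, and TGCTGA, a core of sites of MAF factors, on either strand; the motifs share no overlapping match in the windows shown.
C1qb (chr4:136886201-136886450, minus strand): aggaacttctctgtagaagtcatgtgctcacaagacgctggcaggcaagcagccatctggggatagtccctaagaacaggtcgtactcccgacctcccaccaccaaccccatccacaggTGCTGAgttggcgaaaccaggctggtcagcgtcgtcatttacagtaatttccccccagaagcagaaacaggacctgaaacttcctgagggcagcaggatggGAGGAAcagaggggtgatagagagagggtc
C1qc (chr4:136892915-136893164, minus strand): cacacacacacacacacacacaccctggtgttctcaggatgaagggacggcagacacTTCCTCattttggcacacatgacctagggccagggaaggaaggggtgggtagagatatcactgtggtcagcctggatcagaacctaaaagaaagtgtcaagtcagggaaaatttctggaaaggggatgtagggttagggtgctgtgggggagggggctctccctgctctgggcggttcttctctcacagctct
Ms4a7 (chr19:11336147-11336396, minus strand): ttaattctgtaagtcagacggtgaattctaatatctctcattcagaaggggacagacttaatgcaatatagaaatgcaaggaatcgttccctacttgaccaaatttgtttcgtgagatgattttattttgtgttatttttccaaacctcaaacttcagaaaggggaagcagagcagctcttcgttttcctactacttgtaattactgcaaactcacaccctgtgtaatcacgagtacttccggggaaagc
Stab1 (chr14:31168642-31168891, minus strand): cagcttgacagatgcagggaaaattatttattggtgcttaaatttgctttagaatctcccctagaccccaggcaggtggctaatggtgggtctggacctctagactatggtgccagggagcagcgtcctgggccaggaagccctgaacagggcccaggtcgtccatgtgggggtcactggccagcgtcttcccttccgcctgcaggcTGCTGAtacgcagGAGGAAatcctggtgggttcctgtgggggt
GAGGAA was found in 5 of the 8 members matched (C1qb, C1qc, Stab1, Mrc1 and Pf4), against 23.3% of 32851 windows of the same length in the RefSeq table. TGCTGA was found in 3 of the 8 (C1qb, Stab1 and Folr2), against 16.1% of windows. In C1qb the TGCTGA match lay upstream of the GAGGAA match, and in Stab1 the 2 matches lay close together near the start. The Ms4a7 window held neither string of letters, nor did the window of its other start in the table. These matches are a description of letters, not of bound sites.

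The libraries held 56608582 to 93708304 unique molecular identifiers (UMIs, each a captured RNA molecule) over all barcodes and 3051 to 4634 cells after filtering, with a median of 9722 to 12752 UMIs per cell. Kept cells of any pair of libraries shared 7 barcodes at most, and no interstitial macrophage-like cell shared one. Zswim8 UMIs were not lower in the KO-labelled libraries (38.3, 39.1 and 41.1 CPM, counts of the gene for each 1000000 UMIs of the cells summed) than in the Het libraries (36.7 and 38.7 CPM). These are 3′ tags and give no check of the labels if the deletion spares the 3′ end. Xist, the RNA of the inactive X chromosome, was at 1003 CPM in KO1 and 1049 in KO2 and at 0.137 or below in the other 3 libraries, so sex differed between the groups in part.

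Cells were clustered without the 10 genes, and classes were named from other markers. An interstitial macrophage-like class was named from 13 such genes, of which 11 or 12 had a UMI in at least 20% of its cells in each library. Apoe, encoding a lipid carrier, was found in 99.3% to 100.0% of the cells, F13a1, encoding a clotting factor chain, in 97.2% to 99.3%, and Maf, encoding a transcription factor, in 95.8% to 99.3%. Timd4, a receptor gene of some resident macrophages, was found in only 2.05% to 4.90%. Of 15 alveolar macrophage markers, Chil3 was at 0 in all 5 libraries, and only Fabp5 and Lpl were found in at least 20% of the cells. Its cells numbered 146 and 143 in the Het libraries, against 245, 259 and 298 in the KO-labelled ones. A further cluster of 433 shallow barcodes, with a median of 1590 to 2197 UMIs, was led by the same kind of genes, stayed unnamed, and enters no class below.

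The C1q genes were concentrated in the interstitial macrophage-like class. C1qa stood there at 3680.3 and 3555 CPM in the Het libraries and at 3898, 3307 and 3182 in the KO-labelled ones. In the next class, monocyte-like cells, C1qa was at 93.5, 74.5, 349, 93.2 and 154 CPM in the same order, with KO1 apart from the other 4. In alveolar macrophage-like cells C1qa was at 1.34 to 15.5 CPM. Barcodes made up mostly of haemoglobin RNA, which should lack the gene and serve here as the measure of free RNA, held 5.59 to 12.03 CPM of C1qa at a median depth of 2328 to 2621.5 UMIs. In CPM the alveolar level overlapped the free-RNA level, while the monocyte-like level lay above it in every library. Alveolar macrophage-like cells were deeper, at a median of 14140 to 15165 UMIs. Free RNA can weigh less in the CPM of deeper cells, so the overlap does not tell whether they hold C1qa RNA of their own.

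C1qb and C1qc were also highest in interstitial macrophage-like and next in monocyte-like cells. C1qb was at 3335, 3236, 3690.0, 3212 and 3117 CPM in interstitial macrophage-like cells and at 301, 284, 1089, 369.7 and 494 in monocyte-like cells. C1qc was at 2552, 2547, 2590.3, 2435 and 2544 CPM in the interstitial class and at 126, 122, 561, 140.0 and 222 in the monocyte-like class. The make-up of C1q RNA differed between the classes. C1qb gave 34.7% to 36.3% of the C1q UMIs in interstitial macrophage-like cells and 54.5% to 61.3% in monocyte-like cells, with no overlap over the 5 libraries. C1qa gave 36.0% to 38.5% in the former and 15.45% to 18.0% in the latter. Of interstitial macrophage-like cells thinned to 3000 UMIs each, 97.6% to 98.3% held a UMI of every C1q gene, and of monocyte-like cells 4.41% to 12.4% did.

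Ms4a7, too, was highest in the interstitial class. It was at 553 and 517 CPM in interstitial macrophage-like cells of the Het libraries and at 723, 683 and 698 in the KO-labelled ones. Monocyte-like cells held 7.56 to 17.5 CPM, alveolar macrophage-like cells 5.38 to 7.21, and haemoglobin-rich barcodes 1.07 to 2.55. Folr2 was at 74.9, 155, 81.8, 82.5 and 103 CPM in the interstitial class, with Het2 the highest. Its level in monocyte-like cells was 0.00 to 4.37 CPM, and it was found in 14.2% to 26.0% of thinned interstitial macrophage-like cells.

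Mrc1, the mannose receptor, separated the macrophage classes from monocytes. It was at 1872, 2503, 1624, 1796 and 2041 CPM in interstitial macrophage-like cells, at 145 to 203 in alveolar macrophage-like cells and at 67.4 to 103 in the other macrophage-like cells. Monocyte-like cells held 4.68 to 27.0 CPM of it, a range that overlapped the 2.89 to 5.91 CPM of the shallower haemoglobin-rich barcodes. Cx3cr1 ran the other way among the lower classes. It was at 1339.7, 1154, 1178, 1105 and 1187 CPM in the interstitial class, at 112 to 167 in monocyte-like cells, at 53.5 to 70.4 in the other macrophage-like cells and at 24.0 to 29.9 in alveolar macrophage-like cells. Those 4 ranges did not overlap.

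Stab1 and Lyve1 had their highest mean level outside the immune cells. Lyve1 was at 2242, 1865, 1718, 1611 and 1656 CPM in lymphatic endothelial-like cells, of which the libraries held 10, 6, 38, 20 and 30. It was at 311 to 370.3 CPM in the remaining endothelial-like cells and at 287, 709.8, 272, 318 and 420.0 in interstitial macrophage-like cells. The last 2 ranges overlapped, so the order of those classes differed between libraries. Stab1 was at 1403, 1389, 1131, 1438 and 1045 CPM in lymphatic endothelial-like cells and at 862, 986, 635, 976 and 1054 in interstitial macrophage-like cells, where KO1 was the lowest. The order of the 2 classes was turned in KO3 by a small margin. Blood endothelial-like cells held 92.4 to 105 CPM of Stab1.

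Pf4 was shared with platelets. It was at 5311, 6101, 5726, 5001 and 5254 CPM in interstitial macrophage-like cells. In the platelet or megakaryocyte-like class it was at 4881, 9262, 9330.5, 3542 and 3076, on 28, 20, 12, 15 and 10 cells. The 2 classes overlapped: Pf4 was higher in the interstitial class in Het1, KO2 and KO3 and higher in the platelet class in Het2 and KO1. Alveolar macrophage-like cells held 5.55 to 17.7 CPM of Pf4, in each library below the 16.2 to 37.7 CPM of haemoglobin-rich barcodes. Those barcodes were much shallower, so this order in CPM gives no order of UMIs per cell.

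**Figure D1:**
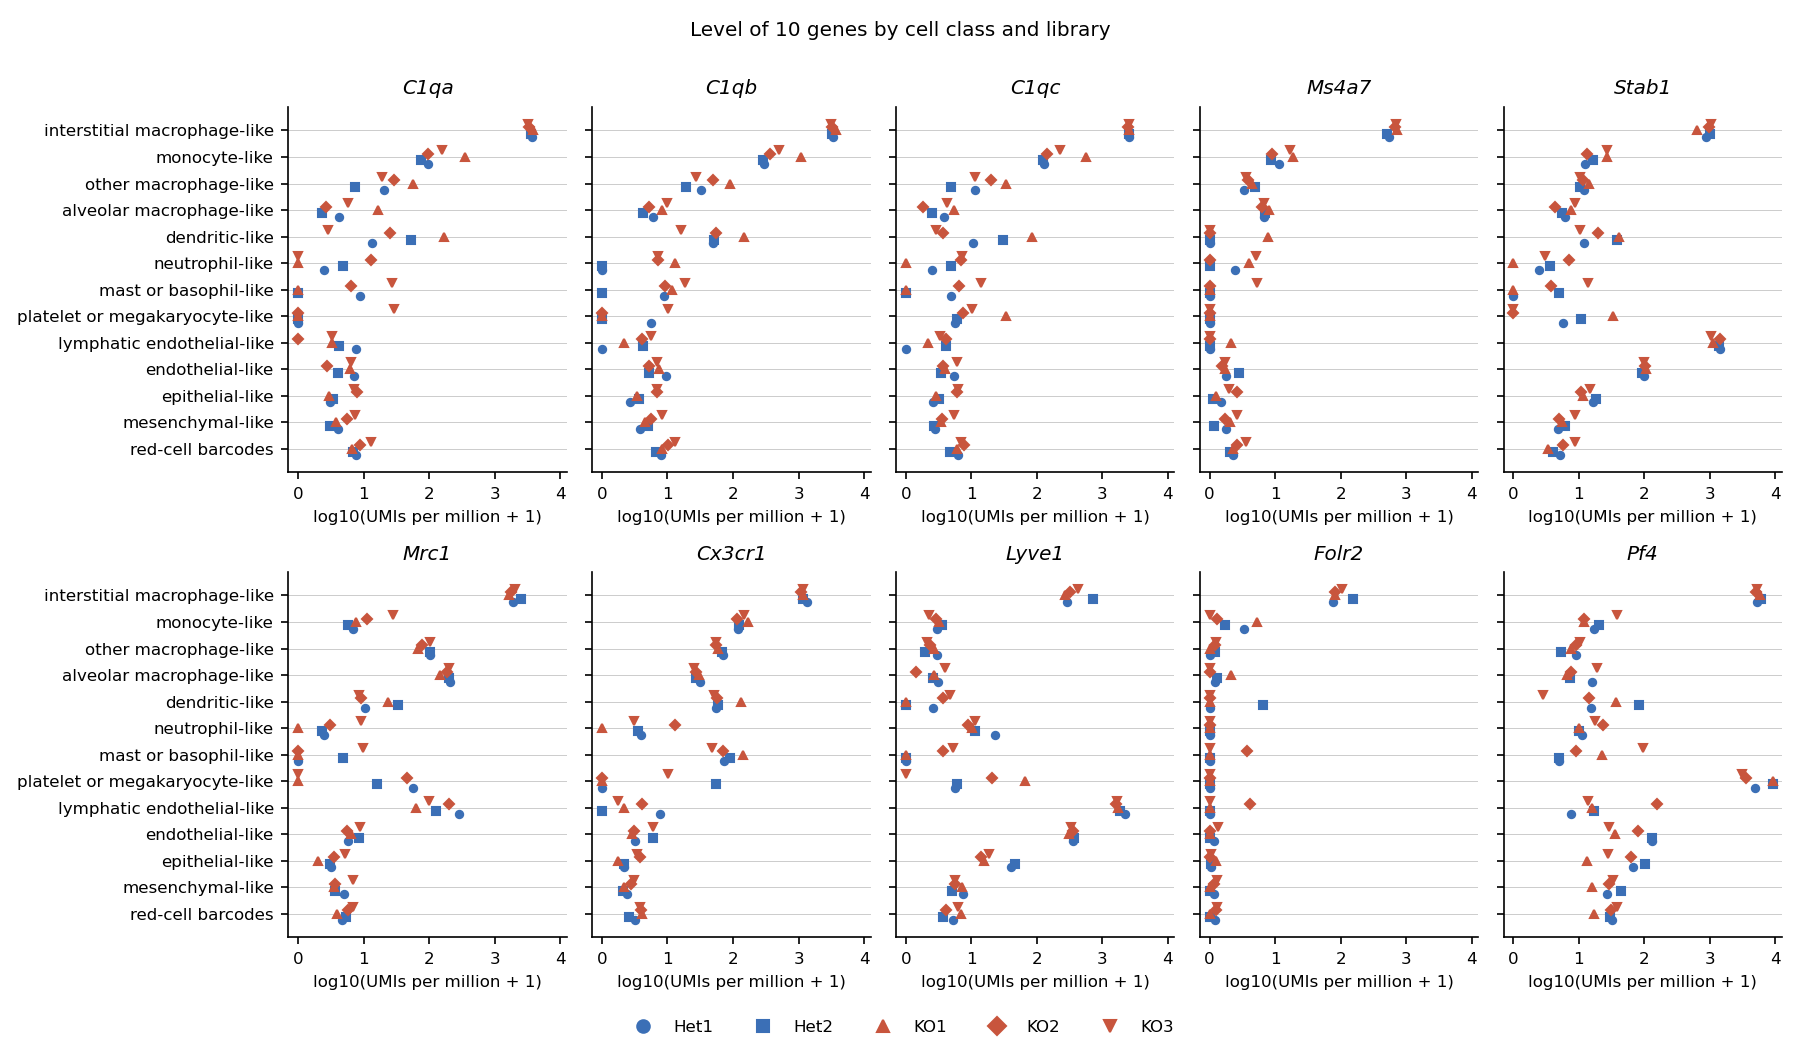
Level of each gene (x axis, log10 of CPM plus 1) in 13 groups of cells (y axis) in each of the 5 libraries (symbols; Het blue, KO-labelled red). By the mean over libraries the interstitial macrophage-like row is highest for 7 of the 10 genes, the lymphatic endothelial-like row for Stab1 and Lyve1 and the platelet row for Pf4; single libraries go the other way for Stab1 (KO3) and Pf4 (Het1, KO2 and KO3).

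Counted over whole lungs, the interstitial macrophage-like class supplied the largest share of the UMIs of 9 of the 10 genes, and more of it in the KO-labelled libraries for several. It held a mean of 88.0% of the C1qa UMIs, 79.4% of C1qb, 85.6% of C1qc, 87.2% of Ms4a7 and 91.4% of Folr2 over the 5 libraries. It held 76.4% of Pf4, 69.2% of Cx3cr1, 66.7% of Mrc1 and 56.0% of Stab1. By library its share of the Mrc1 UMIs was 47.9% and 53.2% in the Het and 82.5%, 76.8% and 73.2% in the KO-labelled libraries. For Pf4 it was 64.7% and 62.2% against 91.5%, 79.0% and 84.3%, and for Stab1 51.1% and 49.9% against 50.9%, 67.5% and 60.6%. For Lyve1 it held 22.2%, against 43.2% in blood endothelial-like and 22.0% in lymphatic endothelial-like cells. Monocyte-like cells held 10.2% of the C1qb UMIs but 3.1% of C1qa, and alveolar macrophage-like cells held 15.4% of the Mrc1 UMIs.

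Within the interstitial macrophage-like class, 6 members were found in nearly every cell and 2, Lyve1 and Folr2, in fewer. After thinning to 3000 UMIs, C1qa was found in 100.0% of the cells of each library, C1qb and C1qc in 98.4% to 100.0%, Pf4 in 95.6% to 98.4%, Mrc1 in 94.2% to 97.6% and Cx3cr1 in 90.4% to 93.5%. Lyve1 was found in 28.3% and 58.1% of the cells of the Het libraries and in 33.8%, 35.0% and 46.0% of those of the KO-labelled ones. The Het libraries thus lay on both sides of the KO-labelled ones. Stab1 was found in 84.1% and 83.1% against 70.2%, 88.8% and 89.6%, with KO1 again the lowest. Cx3cr1 was lower in each KO-labelled library at this depth, and the sign of that difference turned with thinning to 1500 UMIs and with none. In a separate draw of the thinning, cells with a Lyve1 UMI held a Folr2 UMI more often than cells without one in each library (30.8% and 10.1% in Het1, 35.3% and 21.4% in Het2, 31.5% and 14.5% in KO1, 29.4% and 15.5% in KO2, 26.1% and 19.4% in KO3). No such split was seen for Cx3cr1, found in 88.2% to 92.6% of Lyve1-positive and 89.9% to 98.2% of Lyve1-negative cells. The median cell held 8 of the 10 members in 4 libraries and 9 in Het2. A cycling cluster of the class, with 7 to 33 cells per library, held a mean of 395 CPM of Ms4a7 against 680.3 in its main cluster, and 2988 against 3643 of C1qa.

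**Figure D2:**
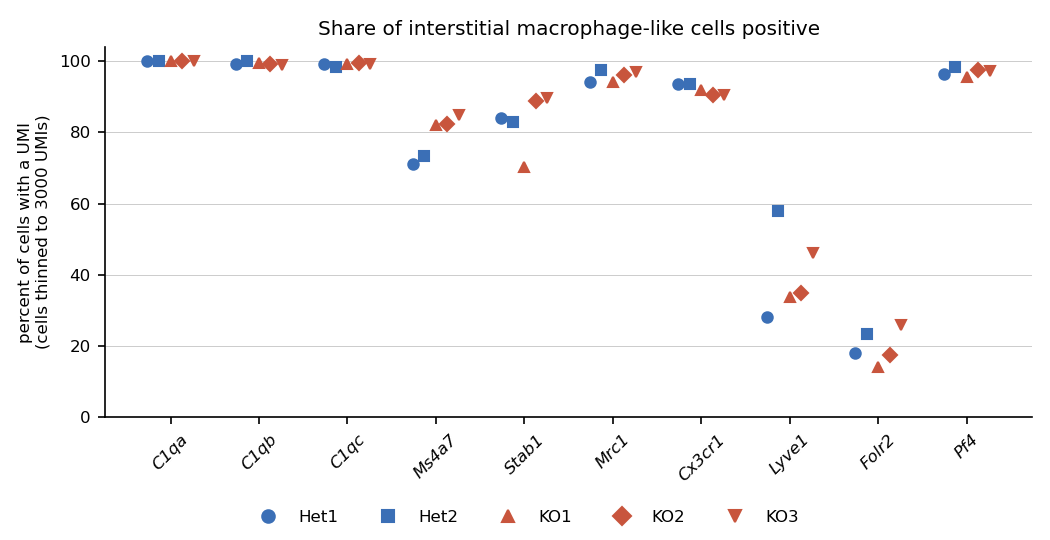
Percent of interstitial macrophage-like cells with at least 1 UMI of each gene after thinning each cell to 3000 UMIs (y axis), by gene (x axis) and library (symbols). Ms4a7 is at 71.0% and 73.4% in the Het libraries and at 82.2% to 84.8% in the KO-labelled ones; Lyve1 and Folr2 are found in a minority of cells in most libraries.

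Across all kept cells of the lung, 9 of the 10 members were higher in each KO-labelled library than in either Het library. Ms4a7 had the largest difference. It was at 18.5002 and 16.3 CPM in the Het libraries and at 54.4, 44.0 and 47.0 in the KO-labelled ones, a log2 fold change of 1.45 (SE 0.12). C1qa was at 116 and 103 CPM in the Het libraries and at 304, 219.7 and 218 in the KO-labelled ones (log2 fold change 1.14, SE 0.18). C1qb was at 119 and 106 against 311, 236 and 234 (1.18, SE 0.15), and C1qc at 83.1 and 76.5 against 208, 166 and 177 (1.17, SE 0.12). KO1 was the highest library for all 4 genes, and the groups did not overlap.

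The receptors and the chemokine differed less. Stab1 was at 45.7 and 50.2 CPM in the Het libraries and at 87.6, 84.9 and 105 in the KO-labelled ones, a log2 fold change of 0.92 (SE 0.10). Pf4 was at 222 and 249 against 439, 372 and 375 (0.72, SE 0.10), and Cx3cr1 at 60.6 and 53.1 against 101.9, 87.3 and 94.7 (0.71, SE 0.10). Folr2 was at 2.43 and 4.22 against 6.01, 5.33 and 6.66 (0.82, SE 0.24), where the Het libraries themselves lay far apart. Mrc1 was at 105.9 and 119.8 against 138, 137 and 168 (0.36, SE 0.10). Lyve1, at 61.3 and 73.9 against 93.2, 70.4 and 93.9 (0.32, SE 0.15), was the member whose groups overlapped.

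In this fit of 17749 genes (edgeR's quasi-likelihood test, Benjamini-Hochberg adjusted p under 0.05), 3.96% of genes were past the threshold in either direction and 1.09% as higher in the KO-labelled libraries. The 7 members past it were C1qa, C1qb, C1qc, Ms4a7, Stab1, Cx3cr1 and Pf4. Groups that did not overlap, higher in the KO-labelled libraries, were found for 23.1% of all genes. The members were chosen with this contrast in view, so nothing is read from these counts. The median log2 fold change of the 10 members was 0.87 and that of all genes tested 0.01. With the sex of the embryo in the fit, or without either Het library, no member was past the threshold, while no fold change turned in sign. Over all alternatives run, the log2 fold change was 1.34 to 1.55 for Ms4a7, 1.06 to 1.25 for C1qc, 0.94 to 1.24 for C1qa and 0.83 to 1.08 for Stab1. It moved more for its size in Folr2 (0.49 to 1.27), Mrc1 (0.27 to 0.53) and Lyve1 (0.19 to 0.45).

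Within interstitial macrophage-like cells, in contrast to the whole lung, 9 of the 10 members overlapped between the groups. The mean level of C1qa was 3618 ± 88.4 CPM (SD, n = 2) in the Het and 3462 ± 382 (SD, n = 3) in the KO-labelled libraries, a log2 fold change of -0.08 (SE 0.12). C1qb was at 3285 ± 69.7 and 3339.7 ± 307 (0.01, SE 0.12), and C1qc at 2549 ± 3.71 and 2523 ± 79.6 (-0.03, SE 0.10). Stab1 (-0.07, SE 0.17), Pf4 (-0.11, SE 0.11) and Cx3cr1 (-0.13, SE 0.11) also stood near 0. Mrc1 (-0.28, SE 0.12), Folr2 (-0.37, SE 0.21) and Lyve1 (-0.57, SE 0.27) had lower means in the KO-labelled libraries. Het2 was the highest library for each of these 3, and Het1 lay within the KO-labelled range for Mrc1 and Lyve1. Without Het2 the log2 fold change of Lyve1 was 0.17 and that of Folr2 0.19, so the direction of both rests on that library.

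Ms4a7 was the exception. It was found at 535 ± 25.6 CPM (SD, n = 2) in the Het and 701 ± 20.1 (SD, n = 3) in the KO-labelled libraries, a log2 fold change of 0.37 (SE 0.11). All 3 KO-labelled libraries lay above both Het libraries. Per cell, this was 6.58 and 5.83 UMIs in the Het libraries and 8.48, 8.02 and 9.26 in the KO-labelled ones. The share of cells with an Ms4a7 UMI at 3000 UMIs per cell was 71.0% and 73.4% against 82.2%, 82.5% and 84.8%, a difference of 11.0 percentage points. The groups overlapped at the other depths: at 1500 UMIs the shares were 56.8% and 49.6% against 69.6%, 55.5% and 66.3%, and at 6000 UMIs they were 85.3% and 92.3% against 89.8%, 90.8% and 93.4%, a difference of 2.51 points. None of the 10 members was past the adjusted threshold in this fit, in which 1.23% of 10238 genes were. Groups higher in the KO-labelled libraries without overlap were found for 14.9% of those genes. Median depth of the class was 11511.5 and 10991 UMIs per cell in the Het libraries and 11832, 11579 and 12859.5 in the KO-labelled ones, so depth too was higher in the latter, and its part in the Ms4a7 values was not tested. In the main cluster of the class alone Ms4a7 was at 599 ± 4.81 CPM (SD, n = 2) against 735 ± 19.9 (SD, n = 3), again without overlap.

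**Figure D3:**
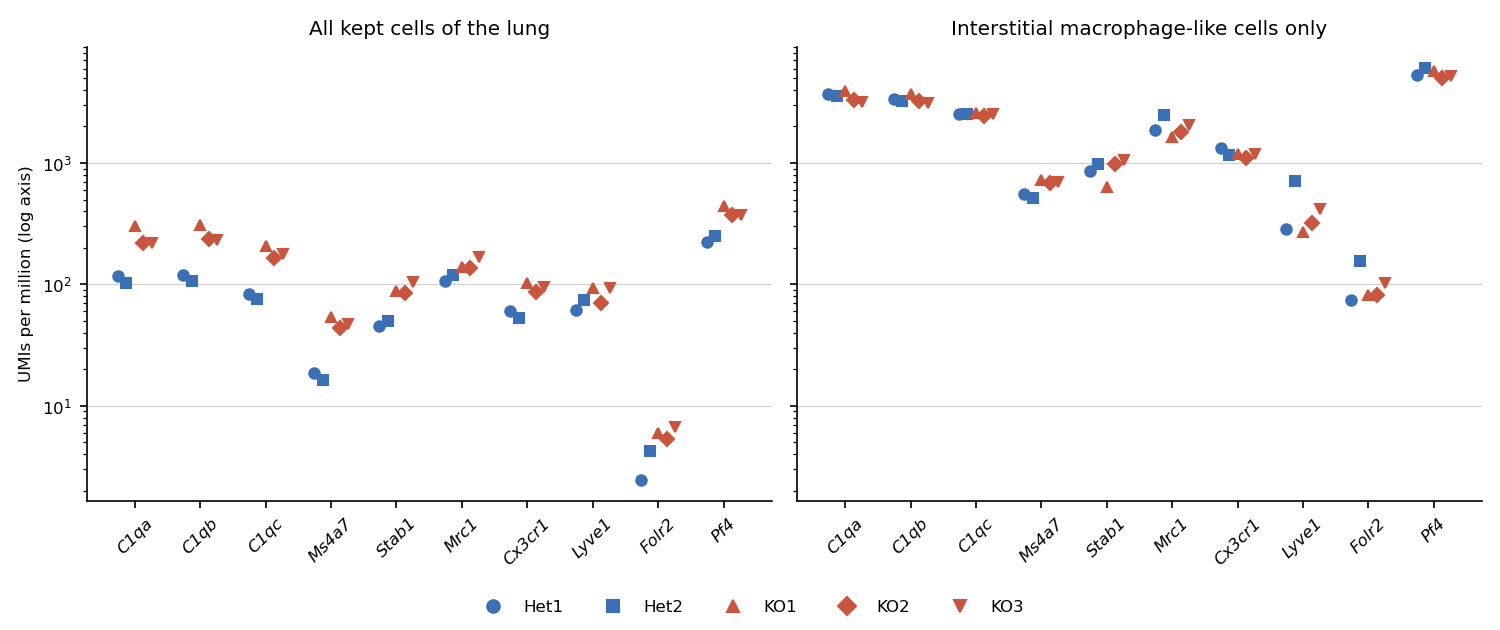
CPM (y axis, log scale) of each gene (x axis) in each library, over all kept cells (left) and over interstitial macrophage-like cells only (right). On the left the KO-labelled libraries lie above the Het libraries for 9 of 10 genes; on the right they do so for Ms4a7 only.

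The number of interstitial macrophage-like cells differed between the groups in the direction of the whole-lung levels. They were 7.12% and 7.17% of the immune cells in the Het libraries and 26.0%, 16.4% and 16.8% in the KO-labelled ones, with a log2 fold change of 1.46 (SE 0.27; edgeR's quasi-likelihood test over 10 immune classes, adjusted p = 0.002178). The exact permutation test gave p = 0.1, the smallest that 2 against 3 libraries allow. Counted against all kept cells, the log2 fold change was 1.24 (SE 0.16). With sex in the fit the log2 fold change was 1.23 (SE 0.34) with an edgeR adjusted p of 0.06635, and without Het1 or Het2 that p was 0.08667 and 0.06829. Alveolar macrophage-like cells were fewer, at 33.2% and 33.7% of immune cells against 13.03%, 10.7% and 15.9% (log2 fold change -1.34, SE 0.23, edgeR adjusted p = 0.002178), and this p was 0.06635 with sex, 0.08667 without Het1 and 0.05311 without Het2. At a finer clustering (Leiden resolution 2) the log2 fold change of the alveolar share was -0.52 (edgeR adjusted p = 0.1455). The unnamed shallow cluster held 76 and 66 barcodes in the Het and 68, 100 and 123 in the KO-labelled libraries. As a share of kept cells it was 1.64% and 1.62% against 2.23%, 3.09% and 3.17%, without overlap, and this was not tested. Shares of dissociated cells rest on what survived dissociation and passed the filters, and a change in numbers per lung was not measured.

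**Figure D4:**
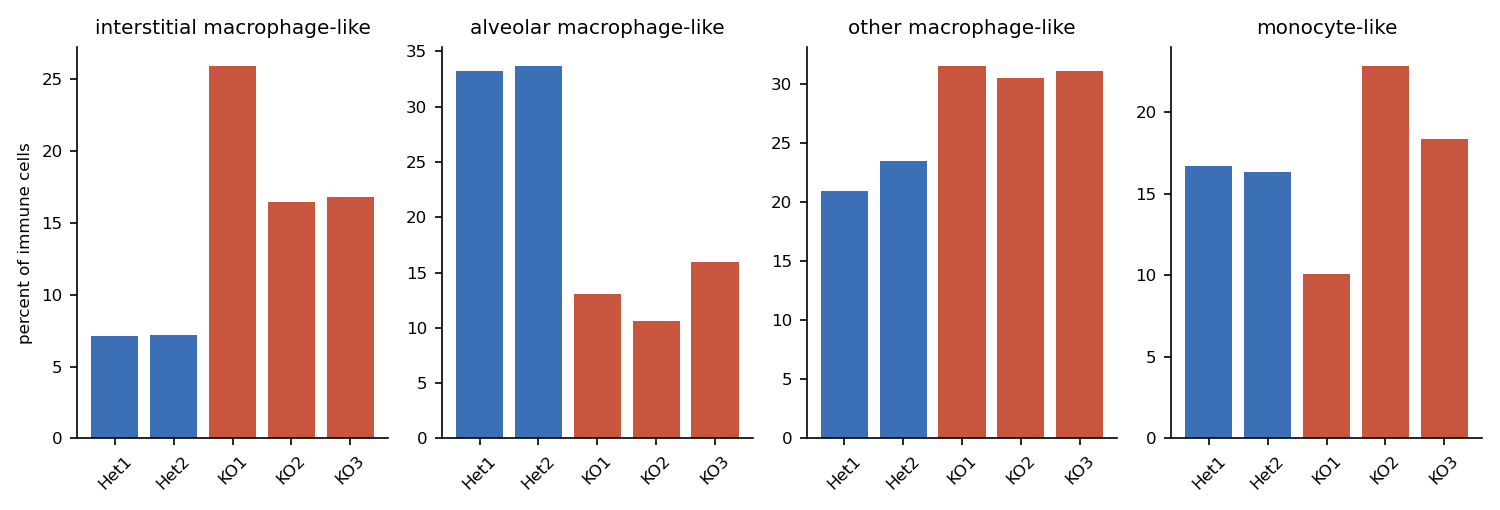
Percent of immune cells (y axis, from 0) in 4 classes of myeloid cells, 1 bar per library (Het blue, KO-labelled red). Interstitial macrophage-like cells make up 7.12% and 7.17% in the Het libraries and 16.4% to 26.0% in the KO-labelled ones; alveolar macrophage-like cells show the opposite order.

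The whole-lung difference of each gene was split into UMIs from interstitial macrophage-like cells and UMIs from all other cells. The other cells include the unnamed shallow cluster led by interstitial macrophage genes. For Folr2, Ms4a7, C1qa, C1qc and C1qb, 97.7%, 97.3%, 90.9%, 89.0% and 84.85% of the difference lay in that class. For Ms4a7 the UMIs from other cells were at 3.30 ± 0.29 CPM (SD, n = 2) in the Het and 4.13 ± 0.72 (SD, n = 3) in the KO-labelled libraries. Those of the C1q genes from other cells were also higher in each KO-labelled library. They went from 14.6 ± 3.01 to 27.2 ± 2.32 CPM for C1qa, from 26.1 ± 3.09 to 48.5 ± 2.80 for C1qb and from 12.9 ± 1.63 to 24.3 ± 1.75 for C1qc. For Stab1 the share of the difference was 69.6% and for Lyve1 44.55%. For Cx3cr1, Pf4 and Mrc1 it was above 100%, at 106%, 118% and 163%, since their UMIs from other cells were lower in the KO-labelled libraries. Those of Mrc1 from other cells went from 55.7 ± 0.65 to 33.7 ± 10.5 CPM, with alveolar macrophage-like cells, its second class, fewer as given above. This is a division of counts and holds no test.

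Pooled macrophage-like cells mixed these classes, and interstitial macrophage-like cells were 11.6% and 11.1% of them in the Het libraries and 36.8%, 28.5% and 26.3% in the KO-labelled ones. In that pool all 10 members were past the threshold and higher in the KO-labelled libraries, against 12.4% of 12951 genes in either direction and 5.7% higher; nothing is read from that count. The log2 fold changes ran from 0.54 (Mrc1, SE 0.08) to 1.69 (Ms4a7, SE 0.16). The direction of calls over all genes moved with the scaling, with 46.1% of called genes higher under trimmed-mean scaling and 65.3% under library size alone.

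Monocyte-like cells carried C1q RNA at a level that differed by library. C1qa, C1qb and C1qc had log2 fold changes of 1.10 (SE 0.42), 1.08 (SE 0.36) and 1.20 (SE 0.45), and C1qb and C1qc, with Mrc1 (1.56, SE 0.50), did not overlap between the groups. KO1 was far above the rest, with 95 monocyte-like cells against 342, 326, 360 and 326 in Het1, Het2, KO2 and KO3. None of the 8 members tested there was past the threshold, as were 0.117% of 9370 genes, and 14% of genes were higher in the KO-labelled libraries without overlap. Nothing is read from these counts. Without KO1 the log2 fold changes of C1qa, C1qb and C1qc were 0.50, 0.51 and 0.49. Over all alternatives run, that of Mrc1 ran from 0.73 to 2.25. Mixed cells, defined below, were 23.2% of the class in KO1. They were 10.2%, 8.28%, 8.89% and 15.6% in Het1, Het2, KO2 and KO3. Cx3cr1, the monocyte gene among the members, was at 118 and 124 CPM in the Het libraries and at 167, 112 and 149 in the KO-labelled ones, with a log2 fold change of 0.17 (SE 0.15). In the other macrophage-like cells Cx3cr1 was lower in all 3 KO-labelled libraries (58.8, 53.5 and 53.6 against 70.4 and 67.9).

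In endothelial cells, with the lymphatic cells included, the receptors and the chemokine went apart. Stab1 (log2 fold change 0.75, SE 0.19) and Mrc1 (0.58, SE 0.24) were higher and Pf4 (-1.46, SE 0.44) lower in the KO-labelled libraries without overlap. Stab1 was past the threshold, as were 12.9% of 12647 genes, and it was the only one of the 8 members tested. Groups that did not overlap in either direction were found for 47.3% of genes. Nothing is read from these counts, and Stab1 was not past the threshold without Het1, Het2, KO1 or KO3 (log2 fold changes of 0.61 to 0.89). The sizes moved with the cells kept: Stab1 was at 0.43 with doublets kept, 0.31 with stricter cell filters and 0.17 without mixed cells, and Mrc1 at 0.15, 0.02 and 0.49. Pf4 was at -1.34, -1.68 and -0.98 under the same settings, at -2.38 with sex in the fit and at -2.21 without KO2. Lymphatic endothelial-like cells, the richest in Stab1, were 10 and 6 in the Het and 38, 20 and 30 in the KO-labelled libraries. Within blood endothelial-like cells alone Stab1 was at 98.3 and 92.4 against 105, 99.5 and 96.8 CPM, and the groups overlapped. Pf4 in those cells was at 131 and 130.1 against 34.1, 78.9 and 27.6 CPM. Of 8 platelet genes tested in the endothelial fit, 7 were lower in all 3 KO-labelled libraries without overlap. Over all genes 47.3% did not overlap in either direction, and nothing is read from this count either. Ppbp, another platelet chemokine gene, passed the test (log2 fold change -3.06, SE 0.63, edgeR adjusted p = 0.02003). Over those 8 genes the median log2 fold change was -0.98. The part of platelet RNA in the Pf4 difference was not tested.

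**Figure D5:**
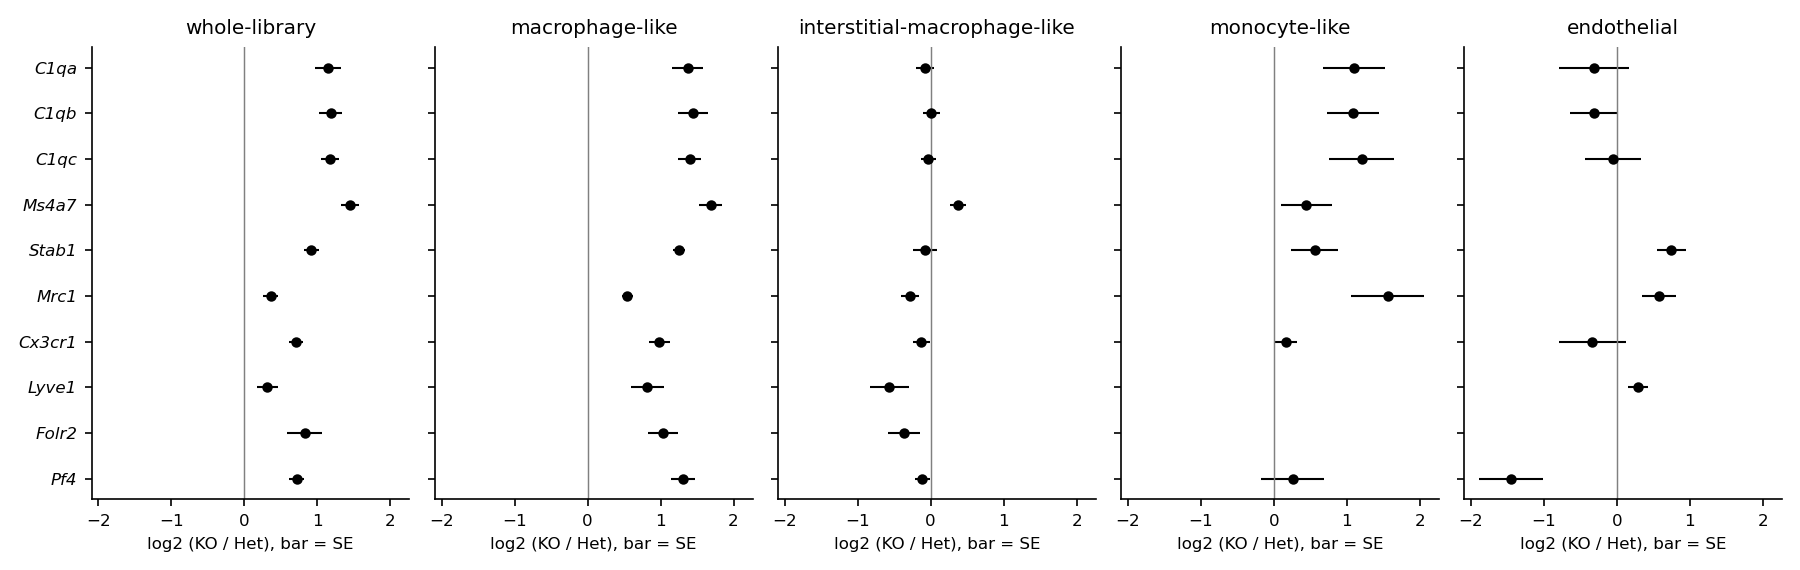
Log2 fold change of KO-labelled over Het libraries (x axis, points with bars of 1 standard error) of each gene (y axis) in the sums of 5 sets of cells. The points lie right of 0 for all 10 genes in the whole library and in pooled macrophage-like cells and near 0 for most in interstitial macrophage-like cells; genes with too few UMIs have no point.

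Companion genes were read from 9 lists, first in pooled macrophage-like cells, where the share of the interstitial class differed as given above. Of 18 other genes of resident macrophages, 17 were tested, 11 rose and none fell, with a median log2 fold change of 0.99 against 0.01 over all genes tested. Ednrb, an endothelin receptor gene, rose by 1.55 on the log2 scale (SE 0.21, edgeR adjusted p = 0.001414). Maf rose by 1.51 (SE 0.09), Mgl2, a lectin gene, by 1.49 (SE 0.17) and Apoe by 1.43 (SE 0.27). Most genes of this list also served to name the interstitial class. All 17 alveolar macrophage genes fell, with a median log2 fold change of -1.52, and 12.4% of 12951 genes were past the threshold in either direction. Markers that served to name the alveolar class are part of this list, Krt79, Atp6v0d2 and Fabp4 among them. Alveolar macrophage-like cells were 53.3% ± 1.30% (SD, n = 2) of the pool in the Het and 20.6% ± 3.75% (SD, n = 3) in the KO-labelled libraries. The part of that share in the falls was not tested. Krt79, a keratin gene, was at 5.60 ± 0.10 CPM (on scaled library sizes, as for all listed genes; SD, n = 2) against 0.19 ± 0.05 (SD, n = 3). Atp6v0d2, a proton pump subunit, was at 51.0 ± 5.13 against 2.32 ± 1.80, Fabp4, a fatty acid carrier, at 276 ± 7.39 against 23.5 ± 11.5, and Mcoln3, a lysosomal channel, at 2.20 ± 0.31 against 0.12 ± 0.07.

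In the pool, 12.4% of 12951 genes were past the threshold in either direction and 5.7% as higher in the KO-labelled libraries. Nothing is read from the counts of the following lists in it. The partners of the members went both ways there. Of 7 C1 partners and C1q-binding proteins tested, 2 rose and 2 fell, with a median log2 fold change of -0.08. C2, the complement protease cut by C1, rose by 1.20 (SE 0.28) and C1qbp by 0.27 (SE 0.07), while C1ra, a protease of the C1 complex, fell by 0.79 (SE 0.14) and Lrp1, an endocytic receptor, by 0.59 (SE 0.07). Of 8 other MS4A genes tested, 3 rose and 1 fell. Ms4a14 (1.53, SE 0.28), Ms4a4a (1.37, SE 0.27) and Ms4a6b (0.97, SE 0.11) rose, and Ms4a8a fell by 1.42 (SE 0.11). Genes of the MS4A family are similar in sequence, and how reads between them were assigned was not checked. Of 14 scavenger and lectin receptors tested, 2 rose and 4 fell. Colec12 (1.00, SE 0.15) and Clec10a (0.79, SE 0.12) rose, and Marco (-2.18, SE 0.18), also an alveolar macrophage gene, and Cd300lf (-0.53, SE 0.07) fell.

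Of 14 ligands and partners of the members tested in the pool, 4 rose and 2 fell, beside the same shares over all genes. Csf1 (1.30, SE 0.30), a growth factor of macrophages, Slc46a1 (1.21, SE 0.29), a folate transporter gene, Ppbp (1.19, SE 0.32) and Csf1r (0.73, SE 0.10), the receptor of CSF1, had the largest changes. Of 16 pan-macrophage genes, 3 rose and 2 fell: Aif1 (1.22, SE 0.20) and Csf1r rose most, and Cybb (-0.58, SE 0.07) and Cebpb (-0.44, SE 0.09) fell. Of 17 monocyte genes, 1 rose and 4 fell, with Ace (-1.77, SE 0.27), Treml4 (-1.20, SE 0.17), F10 (-0.75, SE 0.07) and Fn1 (-0.41, SE 0.08) changing most. Of 4 platelet genes tested, Ppbp rose and none fell.

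Within interstitial macrophage-like cells, the same 9 lists held 3 genes past the threshold, which 1.23% of all 10238 genes tested passed. Nothing is read from that count. Ccl12, a chemokine gene, fell from 1644 and 1334 CPM in the Het libraries to 1013, 964 and 965 in the KO-labelled ones (log2 fold change -0.60, SE 0.11, edgeR adjusted p = 0.02466), and was the only one of 17 resident macrophage genes tested. Lyz2, the macrophage lysozyme gene, rose from 917 and 783 CPM to 2395, 1485 and 1447 (1.06, SE 0.20, edgeR adjusted p = 0.02466), as 1 of 16 pan-macrophage genes. Fabp5, a fatty acid carrier gene, rose from 109 and 90.8 CPM to 474, 251 and 175 (1.58, SE 0.34, edgeR adjusted p = 0.04764), as 1 of 6 alveolar macrophage genes tested. DESeq2 gave adjusted p values of 0.09546 for Lyz2 and 0.2018 for Fabp5. Both lost the call without Het1, Het2 or KO2 (log2 fold changes of 0.95 to 1.19 and of 1.46 to 1.72), and Ccl12 lost it without Het1, KO2 or KO3 (-0.59 to -0.44). With doublets kept the values were 0.59 for Lyz2, 0.85 for Fabp5 and -0.51 for Ccl12, and with sex in the fit they were 0.77, 0.81 and -0.63, none past the threshold. Stricter cell filters ended the calls of Lyz2 (1.03, edgeR adjusted p = 0.05209) and Fabp5 (1.62, edgeR adjusted p = 0.05412) but not that of Ccl12. The summed level of the 15 alveolar markers in these cells was 229 and 230.4 CPM in the Het and 665, 422 and 328 in the KO-labelled libraries, and Chil3 was at 0 throughout. Fabp5 is part of that sum, so the sum is not separate from the Fabp5 values. Of the 6 alveolar macrophage genes tested, 3 had a positive log2 fold change, and the median was -0.04. Mixed cells were those with UMIs of 3 or more different marker genes of a single other lineage. They were 15.1% and 11.2% of the class in the Het libraries and 31.8%, 7.34% and 25.2% in the KO-labelled ones. Without those cells the log2 fold change of Lyz2 was 0.93 and that of Fabp5 1.54, the latter not past the threshold (edgeR adjusted p = 0.1815).

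No gene of the other 6 lists passed the test within the class. Their most abundant members had the following log2 fold changes. Clec4n was at 0.93 (SE 0.21) and Msr1 at -0.07 (SE 0.11) among scavenger and lectin receptors, and Calr at -0.25 (SE 0.12) and Lrp1 at -0.09 (SE 0.11) among C1 partners. Csf1r was at 0.02 (SE 0.10) and Csf2rb, a receptor chain for GM-CSF, at 0.41 (SE 0.15) among ligands and partners. Ms4a6c (-0.13, SE 0.11) and Ms4a6b (-0.15, SE 0.11) were near 0 there, although Ms4a6b had risen in the pool. Nr4a1 (-0.03, SE 0.13) and Fn1 (-0.73, SE 0.30) were the most abundant of 10 monocyte genes tested. Of those 10, 1 had a positive log2 fold change, and the median was -0.41. Ppbp (0.14, SE 0.36) was the only platelet gene tested.

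The 10 genes whose levels over 16 cell classes were most like the mean of the members, of 6666 compared, were Crybb1, Cd163, Ccl24, Cryba4, Fcrls, Fcna, Ccl12, G530011O06Rik, Ctsb and Abcc3. Pearson's r of log2(mean CPM + 1) ran from 0.92 for Crybb1 to 0.79 for Abcc3, as a description over classes of the same 5 libraries. Of the members themselves, Folr2 (0.93), C1qc (0.89) and C1qa (0.87) followed the mean of the other 9 most closely, and Pf4 (0.55) and Lyve1 (0.37) least.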

How the data were processed

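Single-cell libraries were made with the 10x Genomics 3′ v3.1 chemistry, per the labels' protocols. The authors deposited raw UMI counts per gene and barcode, made with Cell Ranger 4.0.0 on mm10, per the submitters' processing notes. Barcodes were kept from 500 genes up and with mitochondrial UMIs of no more than 15%, and simulated-doublet scores removed the top 0.8% per 1000 cells. Cells were clustered (scanpy 1.11.5, 2000 variable genes, 30 components, 15 neighbours, Leiden resolution 1), immune cells again, with the 10 genes left out. A class needed at least 3 markers found in 20% of cells, a rule set after the clusters were seen. UMIs were summed per library and class, since cells are not replicates, and tested with edgeR 4.0.16 (quasi-likelihood, trimmed-mean scaling, filterByExpr, Benjamini-Hochberg over all genes) in R 4.3.3; the steps were tested on simulated data. Levels are CPM of the summed UMIs of a class, unscaled for the members and trimmed-mean scaled for listed genes. Levels of different genes come from 3′ tags and were not compared with each other. Listed genes are named by size of change past the threshold (up to 4 a list), or else the 2 of highest CPM. The members and lists were chosen with earlier results of these data known. P-values of the fits weigh the difference between the groups against the spread between embryos of the same group.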

Additional observations from a re-analysis of the deposited data

Results flagged for a closer look

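For some members the ratio of KO-labelled to Het libraries lay on opposite sides of 1 in different sets of cells, without overlap of the libraries, and these differences were not tested. The pool of macrophage-like cells held 11.6% and 11.1% interstitial macrophage-like cells in the Het and 36.8%, 28.5% and 26.3% in the KO-labelled libraries. Within the interstitial class itself the log2 fold changes were -0.11 for Pf4, -0.13 for Cx3cr1, -0.28 for Mrc1 and -0.57 for Lyve1. Pf4 was 2.60 times as high in the KO-labelled as in the Het libraries over pooled macrophage-like cells and 0.359 times as high in blood endothelial-like cells, so that the ratios differed 7.25-fold. Cx3cr1 was 2.07 times as high in pooled macrophage-like cells and 0.8 times as high in the other macrophage-like cells that are part of that pool, a 2.59-fold difference of ratios. Mrc1 was 1.53 and 0.794 times as high in the same sets, a 1.93-fold difference. Lyve1 was 1.86 times as high in pooled macrophage-like cells and 0.809 times as high in lymphatic endothelial-like cells, a 2.297-fold difference, with 6 to 38 lymphatic cells per library.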

How the results depend on the processing

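The number of members past the threshold over whole libraries was 7, and it was 0 with the replicate block and with the sex covariate and 0 to 7 when 1 library was left out. In interstitial macrophage-like cells it was 0, against 2 with no low-count filter and 2 with the replicate block. In monocyte-like cells it was 0, against 4 with no filter and 0 to 3 with a library left out. In endothelial cells it was 1, against 0 with library size alone, the replicate block, doublets kept and stricter cell filters, 2 with no filter and 0 to 3 with a library left out. Genes called over whole libraries were 702, against 2028 with DESeq2, 455 with no filter, 7 with the block, 1 with sex, 80 without mixed cells and 3 to 734 with a library left out. In macrophage-like cells 1601 became 2500 with the block, 820.0 with sex and 520.0 to 1963 with a library left out. In interstitial macrophage-like cells 126 became 489 with no filter, 499 with the block, 17 with sex, 76 with doublets kept and 15 to 235 with a library left out. In monocyte-like cells 11 became 27 with DESeq2, 4 with library size alone, 343 with no filter, 22 with the block, 0 with sex (580.0 at an unadjusted p under 0.05), 22 with stricter cell filters and 0 to 385 with a library left out, the 0 without Het1 or KO2 (516 and 808 at an unadjusted p under 0.05). In endothelial cells 1636 became 864 with the block, 527 with sex, 658 with doublets kept, 547 with stricter filters, 785 without mixed cells and 298 to 1496 with a library left out. The log2 fold change of the interstitial share was 1.232 with sex and 1.217 to 1.569 with a library left out; that of the alveolar share was -1.07 with sex, -0.52 at Leiden resolution 2 and -1.50 to -1.20 with a library left out. Among listed genes in interstitial macrophage-like cells that had not passed, signs turned for Csf1r (-0.0295 to 0.0884 with a library left out), Ppbp (-0.0939 with the block, -0.0477 without mixed cells, -0.3579 to 0.9163 with a library left out) and Nr4a1 (0.1087 with sex, 0.0021 with doublets kept, -0.1736 to 0.1375 with a library left out). Deviations of same-numbered libraries from their group mean correlated at -0.09 and -0.10. With 2 Het libraries those deviations mirror each other, so the check cannot tell whether same-numbered libraries pair. The causes were not tested. The 2 Het libraries limit every comparison.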
